A study of Homo sapiens with 7 samples.

Results

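Genes of endothelial receptors and of their surface and partner proteins were read across a cardiac differentiation of human embryonic stem cells (hESC). The 10 genes, chosen by name out of 23262 in the table, were KDR, FLT1, TEK, TIE1, PECAM1, ESAM, PLVAP, ENG, EGFL7 and ETV2, and all 10 were found. Most encode receptors or membrane proteins, whereas EGFL7 encodes a secreted protein and ETV2 a transcription factor, so the set is wider than receptors and surface proteins.

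Endothelial cells line blood vessels, and in the embryo they arise from mesoderm that carries the VEGF receptor encoded by KDR. VEGF ligands act through KDR, with FLT1 as a tight-binding receptor that also exists in a soluble form and limits VEGF signalling. Angiopoietins act through TEK, with TIE1 as its partner, and steady mature vessels. Some of these genes are read outside endothelium as well: KDR and ENG are also known in mesoderm and mesenchymal cells, FLT1 in trophoblast, and KDR in pluripotent human cells.

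The cells are labelled as H3 hESC with an eGFP reporter at NKX2-5, a heart transcription factor gene, and an mCherry reporter for alpha-MHC, the cardiac myosin encoded by MYH6. The number after NKX2 in the label of the line counts upward from sample to sample, and the samples were treated here as 1 line. All 7 groups share both reporters and the differentiated ones the same differentiation toward heart. The groups were undifferentiated hESC (day 0), day 3 CD13+/ROR2+ cells (labelled mesoderm progenitor), day 3 CD13-/ROR2- cells (labelled endoderm progenitor), day 7 NKX2-5+ cells (labelled cardiac progenitor), day 7 NKX2-5- cells (cell type labelled unknown), day 14 NKX2-5+ cells with alpha-MHC (day 14 aMHC+, labelled cardiomyocytes) and day 14 NKX2-5+ cells without it (day 14 aMHC-, labelled unknown). The day 7 and day 14 fractions are labelled CD13+/ROR2+ as well, and the labels do not say on which day that gate was applied. No group was sorted on an endothelial marker. Each group is 1 library, so no difference below has a replicate check, no test or standard deviation can be given, and the order of libraries with close values is not resolved.

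Levels are in FPKM, fragments mapped to a gene, divided by transcript length and library depth, so that genes of different length can be set side by side. Folds are plain quotients of FPKM. For a log2 ratio, 1 FPKM was added to both levels before division, which understates differences of low genes. To be counted as different, a gene needed a log2 ratio of 2 or beyond in either direction (4-fold) and a level of 5 FPKM or above in whichever library was higher. Only 6 of the 10 genes reached 5 FPKM in any library, and TEK, TIE1, PECAM1 and ETV2 could therefore never be counted, whatever their fold. A gene that reaches 5 FPKM in only 1 library of a pair can be counted only as higher in that library. Shares of tested genes that were counted are therefore descriptions and not tests. These are bulk samples, in which a higher share of cells of a type and more RNA per cell cannot be told apart.

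Relative depth, read from the steps between low values, was 2.63 times that of hESC in day 3 CD13+/ROR2+, 1.31 in day 3 CD13-/ROR2-, 0.602 in day 7 NKX2-5+, 1.99 in day 14 aMHC+ and 3.10 in day 14 aMHC-, and could not be read for day 7 NKX2-5-. The defining marker of pluripotency followed the labels (POU5F1 154 FPKM in hESC, at most 0.181 on days 7 and 14), and that of heart muscle did so (TNNT2 934 FPKM in day 7 NKX2-5+ against 180 in NKX2-5-, and 1133 in day 14 aMHC+ against 535 in aMHC-) only in their order within each pair. MYH6, the gene of the alpha-MHC reporter, was 342 FPKM in day 14 aMHC+ but also 136 in aMHC- and 531 in day 7 NKX2-5+. The day 3 CD13-/ROR2- library, labelled endoderm progenitor, was at 0.0874 FPKM for the endoderm gene FOXA2 and kept POU5F1 at 64.8 FPKM. A value of exactly 0 may be a failed estimate, since ARPC2 and HNRNPD, which most cells use, are listed at 0 in that library as well. The log2 quotient of the median-ratio scaling factors was -0.43 in the day 7 pair and -0.21 in the day 14 pair. For day 7 NKX2-5+ and NKX2-5- over day 3 CD13+/ROR2+ it was -0.69 and -0.26. For day 14 aMHC+ and aMHC- over day 7 NKX2-5+ it was 0.615 and 0.83, and in the day 3 comparisons less than 0.1 in size. Levels are divided by these factors, so scaling moves the log2 ratios of genes well above 1 FPKM in the opposite direction.

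Gene by gene, 6 of the 10 were highest in day 7 NKX2-5- (TEK, TIE1, PECAM1, ESAM, PLVAP and ENG), KDR and FLT1 in day 3 CD13-/ROR2-, and EGFL7 and ETV2 in day 14 aMHC-. Of the 9 that reached 1 FPKM in some library, 6 were highest in day 7 NKX2-5-, beside 9.91% of all 13506 genes of that level. TEK, TIE1 and PECAM1 reached 1 FPKM in that library alone, so for them the floor fixed which library was highest. The genes were also chosen with earlier results of these data known, so the shares here are a description and not a test. By a rule set after the values were seen, all 6 stood at least 4-fold above the next library (4.26-fold to 8.26-fold), against 1.1% of those 13506 genes. The shares of genes highest in the other libraries were 19% in hESC, 13.8% and 17.6% in day 3 CD13+/ROR2+ and CD13-/ROR2-, 5.18% in day 7 NKX2-5+, and 10.1% and 24.3% in day 14 aMHC+ and aMHC-. No endothelial gene of the 10 led by 4-fold in those libraries, where 0.548%, 1.18%, 0.341%, 0.281%, 0.185% and 0.0666% of all genes did, in the same order. After median-ratio scaling the 6 remained highest in day 7 NKX2-5-, by 3.18-fold to 7.60-fold, and 3 of them (TEK, TIE1 and PLVAP) kept a gap of 4-fold. At equal sums of FPKM they were highest there too, but by 1.12-fold to 3.08-fold. In that setting the small RNA gene MIR612 alone takes 51.6% of the day 7 NKX2-5- sum.

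**Figure D1:**
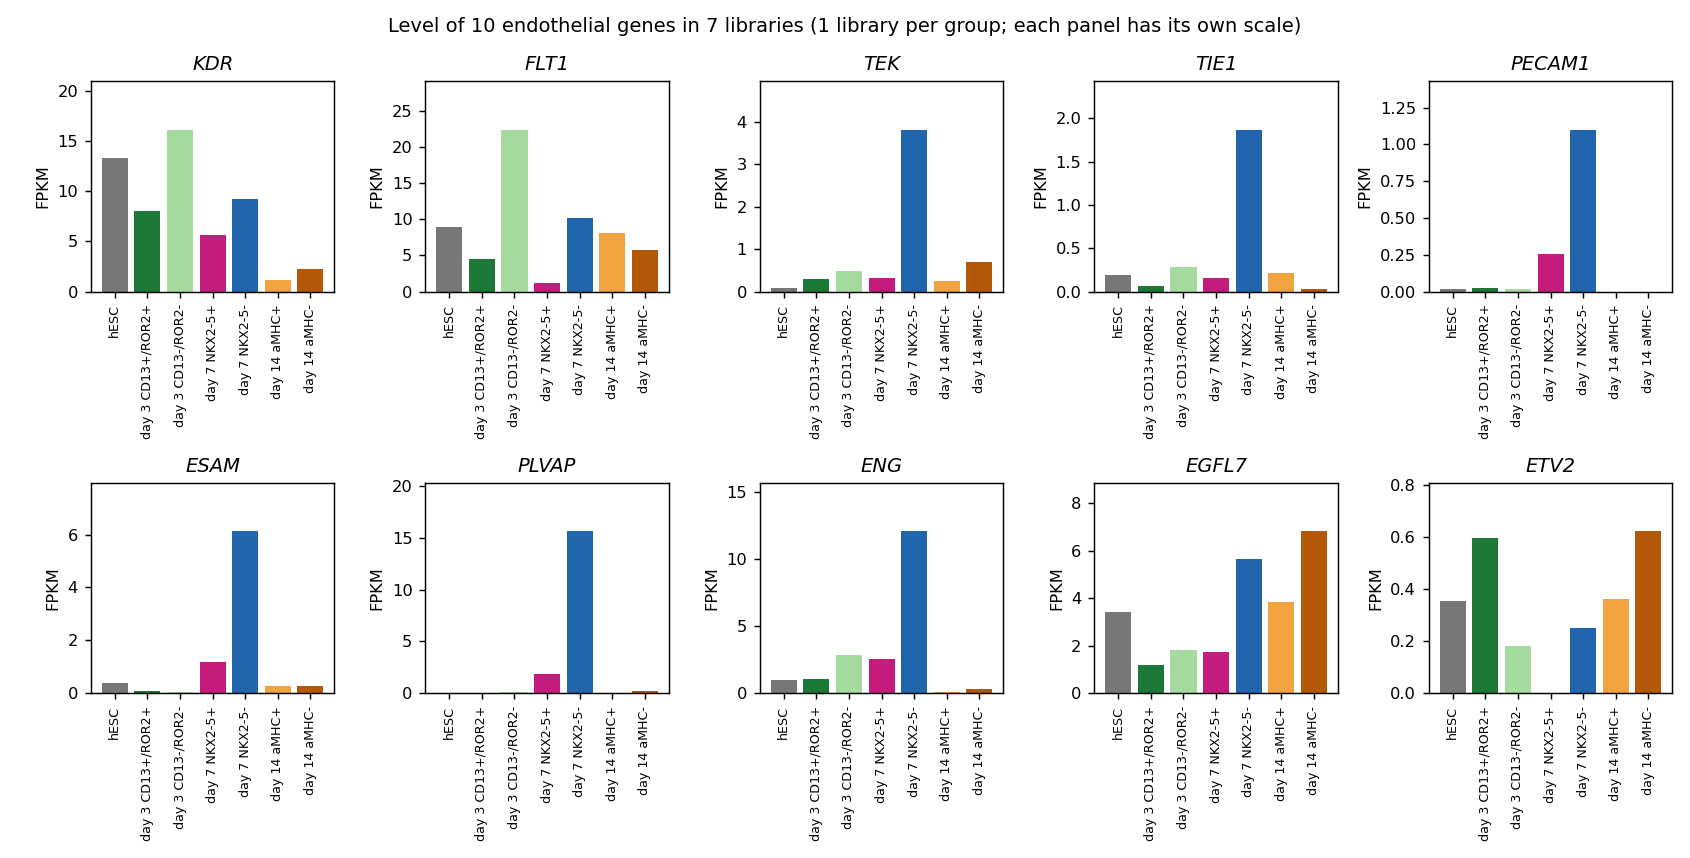
FPKM (vertical axis, from 0, a separate scale in each panel) of the 10 genes in the 7 libraries (horizontal axis, 1 bar per library). The day 7 NKX2-5- bar is the tallest for TEK, TIE1, PECAM1, ESAM, PLVAP and ENG, whereas KDR and FLT1 peak in day 3 CD13-/ROR2-.

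Promoter sequences are shown for 3 of the 6 genes that peak in day 7 NKX2-5- and for the 2 VEGF receptor genes that do not, to set genes with different profiles beside each other. ETS transcription factors, the family of ETV2, FLI1 and ERG, are known to act at many endothelial genes through sites with the core GGAA. The motif searched was AGGAAG on both strands (CTTCCT on the reverse), and capitals mark each match. The windows are the 250 bases before the RefSeq start (build GRCh38.p14), read 5′ to 3′ on the strand of the gene: chr19:17377343-17377592 for PLVAP (minus strand), chr1:43300732-43300981 for TIE1 (plus), chr9:127854659-127854908 for ENG (minus), chr13:28495129-28495378 for FLT1 (minus) and chr4:55125596-55125845 for KDR (minus).
PLVAP: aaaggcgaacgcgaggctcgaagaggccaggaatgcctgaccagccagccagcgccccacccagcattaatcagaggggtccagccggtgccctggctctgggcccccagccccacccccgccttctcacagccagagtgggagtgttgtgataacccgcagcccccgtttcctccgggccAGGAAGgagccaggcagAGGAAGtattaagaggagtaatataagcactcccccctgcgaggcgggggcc
TIE1: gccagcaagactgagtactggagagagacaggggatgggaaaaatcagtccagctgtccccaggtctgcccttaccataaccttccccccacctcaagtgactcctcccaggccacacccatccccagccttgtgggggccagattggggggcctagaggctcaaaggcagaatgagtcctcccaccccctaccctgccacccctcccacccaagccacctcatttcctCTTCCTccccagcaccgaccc
ENG: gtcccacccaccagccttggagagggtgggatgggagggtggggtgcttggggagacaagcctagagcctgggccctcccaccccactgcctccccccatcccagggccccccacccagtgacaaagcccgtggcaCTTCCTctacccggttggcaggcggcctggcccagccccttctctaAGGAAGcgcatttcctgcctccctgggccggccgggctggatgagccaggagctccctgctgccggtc
FLT1: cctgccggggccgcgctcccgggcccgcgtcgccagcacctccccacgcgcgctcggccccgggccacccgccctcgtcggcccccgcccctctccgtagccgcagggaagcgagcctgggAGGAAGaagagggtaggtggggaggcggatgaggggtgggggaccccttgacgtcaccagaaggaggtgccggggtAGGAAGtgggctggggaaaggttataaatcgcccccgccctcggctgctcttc
KDR: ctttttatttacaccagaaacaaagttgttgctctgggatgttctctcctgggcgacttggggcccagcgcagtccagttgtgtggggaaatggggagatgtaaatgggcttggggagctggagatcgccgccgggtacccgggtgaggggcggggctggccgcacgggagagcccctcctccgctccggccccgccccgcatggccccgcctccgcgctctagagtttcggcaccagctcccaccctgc

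PLVAP, ENG and FLT1 each held 2 matches, TIE1 held 1 and KDR 0. The PLVAP matches begin 69 and 52 bases before the start and the TIE1 match 21 bases before it. Of the 8 genes with a RefSeq promoter entry here, 6 held the motif at 1 start site or more (EGFL7 and ETV2 being the others, TEK having none). By start site it was 7 of 10, beside 28.7% of all 35116 start sites. EGFL7 and TEK have 2 start sites each in the table. FLT1, with another profile, holds the same letters as PLVAP, TIE1 and ENG, whereas TEK, with a profile like theirs, does not. These counts are of AGGAAG only. The shorter core GGAA was not counted, and the windows of KDR (ggggaaat) and TEK hold it on 1 strand or the other. A match is a run of letters and was not measured as a bound site.

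KDR encodes VEGF receptor 2, the main signalling receptor for VEGF. Its FPKM was 13.3 in hESC, 8.04 in day 3 CD13+/ROR2+, 16.2 in day 3 CD13-/ROR2-, 5.68 in day 7 NKX2-5+, 9.28 in day 7 NKX2-5-, 1.11 in day 14 aMHC+ and 2.25 in day 14 aMHC-. It was thus present from the start, highest in hESC and the day 3 CD13-/ROR2- library (1.21-fold apart), and lowest in the 2 day 14 libraries. Between the day 3 fractions it was 2.01-fold higher in CD13-/ROR2- than in the mesoderm fraction. Against day 7 NKX2-5+ it was 5.14-fold lower in day 14 aMHC+ and 2.53-fold lower in day 14 aMHC-, with log2 ratios of -1.67 and -1.04, both short of the size of 2. After median-ratio scaling the first was -2.18 and would count.

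FLT1 encodes VEGF receptor 1. Its FPKM was 8.94 in hESC, 4.47 in day 3 CD13+/ROR2+, 22.4 in day 3 CD13-/ROR2-, 1.20 in day 7 NKX2-5+, 10.1 in day 7 NKX2-5-, 8.07 in day 14 aMHC+ and 5.69 in day 14 aMHC-. The day 3 CD13-/ROR2- level was the highest of the 7, 2.21-fold above the next, and day 7 NKX2-5+ was the lowest. FLT1 passed the size rule in 3 comparisons: it was 5.01-fold higher in day 3 CD13-/ROR2- than in CD13+/ROR2+, 8.46-fold higher in day 7 NKX2-5- than in NKX2-5+, and 6.74-fold higher in day 14 aMHC+ than in day 7 NKX2-5+. The log2 ratios were -2.10 for day 3 CD13+/ROR2+ over CD13-/ROR2-, -2.34 for day 7 NKX2-5+ over NKX2-5- and 2.05 for day 14 aMHC+ over day 7. Without small RNA and histone genes the first was no longer counted (-1.99), and after median-ratio scaling the last was not (1.66). The FPKM of the gene does not separate its full-length from its soluble transcripts. Of 10 trophoblast markers, TFAP2C, GATA3 and PAPPA2 were also highest in day 3 CD13-/ROR2- (6.55, 5.08 and 0.343 FPKM). Another 6 (CGA, CGB5, VGLL1, HLA-G, GCM1 and PSG5) were listed at 0 there. The part of trophoblast cells in the FLT1 level was not tested.

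The VEGF ligands and coreceptors had another order. VEGFA, the main ligand of both receptors, was 6.24 FPKM in hESC and 18.7 and 18.5 in day 14 aMHC+ and aMHC-, its highest libraries. NRP2, a neuropilin that binds VEGF and semaphorins, peaked in day 7 NKX2-5- at 46.2 FPKM, with 10.9 in NKX2-5+. In the day 3 pair NRP2 was 28.9 FPKM in the CD13+/ROR2+ library and 1.69 in the other. NRP1 was 5.55 against 0.285 FPKM in the day 3 pair, so the 2 neuropilin genes were higher in the fraction in which KDR and FLT1 were lower. PGF, a ligand of FLT1, stayed between 0.239 and 3.01 FPKM and FLT4, the lymphatic VEGF receptor, between 0.0417 and 0.841. Of the 8 genes of this list, 2 were counted as higher in day 3 CD13+/ROR2+ than in CD13-/ROR2- (3.69% of all genes tested) and none in the day 7 or day 14 pair.

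TEK encodes the angiopoietin receptor TIE2. Its FPKM was 0.0908 in hESC, 0.289 in day 3 CD13+/ROR2+, 0.495 in day 3 CD13-/ROR2-, 0.324 in day 7 NKX2-5+, 3.82 in day 7 NKX2-5-, 0.240 in day 14 aMHC+ and 0.702 in day 14 aMHC-. Only day 7 NKX2-5- passed 1 FPKM, at 11.8-fold the level of NKX2-5+. TIE1, its partner with no known ligand of its own, was 0.195 FPKM in hESC, 0.0585 in day 3 CD13+/ROR2+, 0.278 in day 3 CD13-/ROR2-, 0.162 in day 7 NKX2-5+, 1.87 in day 7 NKX2-5-, 0.213 in day 14 aMHC+ and 0.0338 in day 14 aMHC-. The gap between the day 7 fractions, 11.6-fold, was close to that of TEK, and these were the widest of the 9 day 7 folds that could be formed, ETV2 being listed at 0 in NKX2-5+. Both folds rest on low levels in NKX2-5+ (0.324 and 0.162 FPKM). With 1 FPKM added, the log2 ratios of NKX2-5+ over NKX2-5- for TEK (-1.865) and TIE1 (-1.30) were smaller in size than for PLVAP (-2.52) and FLT1 (-2.34).

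The ligands of TEK were found in other fractions. ANGPT1, the activating ligand made by supporting cells and heart muscle, was at most 0.335 FPKM before day 7 and highest in day 7 NKX2-5+ (5.71), followed by day 14 aMHC+ (3.78), day 7 NKX2-5- (3.49) and day 14 aMHC- (1.26). ANGPT2, which opposes ANGPT1 at TEK in many settings, was 8.22 FPKM in day 3 CD13+/ROR2+ and at most 1.64 elsewhere. It was counted as higher in day 3 CD13+/ROR2+ than in CD13-/ROR2-, where it stood at 0.0351 FPKM. PTPRB, the endothelial phosphatase that acts on TEK, reached 0.687 FPKM in day 7 NKX2-5- and no more in any library.

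**Figure D2:**
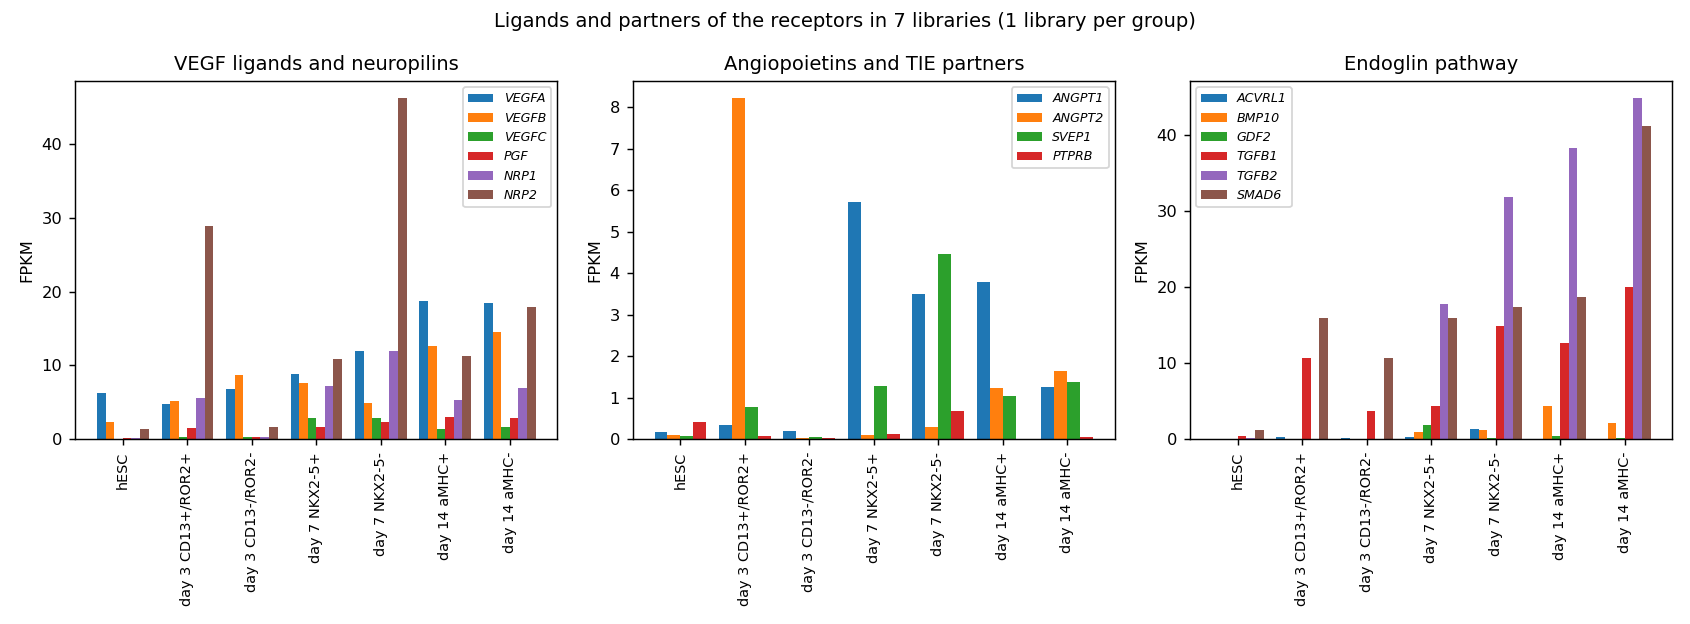
FPKM (vertical axes, from 0) of ligands and partners of the receptors in the 7 libraries (horizontal axes, 1 bar per gene and library). NRP2 peaks at 46.2 in day 7 NKX2-5-, ANGPT2 at 8.22 in day 3 CD13+/ROR2+, and TGFB2 is above 17 from day 7 on.

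PECAM1 and ESAM encode adhesion molecules of endothelial junctions, and PECAM1 is also on platelets and leukocytes. PECAM1 was 0.0188 FPKM in hESC, 0.0212 in day 3 CD13+/ROR2+, 0.0145 in day 3 CD13-/ROR2-, 0.257 in day 7 NKX2-5+ and 1.10 in day 7 NKX2-5-, and is listed at 0 in both day 14 libraries. The values before day 7 are so low that they may rest on very few reads. ESAM was 0.376 FPKM in hESC, 0.0695 in day 3 CD13+/ROR2+, 0.0476 in day 3 CD13-/ROR2-, 1.18 in day 7 NKX2-5+, 6.12 in day 7 NKX2-5-, 0.286 in day 14 aMHC+ and 0.259 in day 14 aMHC-. Both genes had their second highest level in day 7 NKX2-5+, and the day 7 folds were 4.29 for PECAM1 and 5.19 for ESAM.

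PLVAP encodes the protein of the diaphragms that span endothelial pores and caveolae. It is listed at 0 in hESC and day 14 aMHC+ and was 0.0192 FPKM in day 3 CD13+/ROR2+, 0.124 in day 3 CD13-/ROR2-, 1.89 in day 7 NKX2-5+, 15.6 in day 7 NKX2-5- and 0.210 in day 14 aMHC-. Of the 10 genes it had the widest range over the libraries (4.06 on the log2 scale). ENG encodes endoglin, a coreceptor for BMP and TGF-beta ligands of endothelial and mesenchymal cells.

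ENG was 1.02 FPKM in hESC, 1.03 in day 3 CD13+/ROR2+, 2.84 in day 3 CD13-/ROR2-, 2.55 in day 7 NKX2-5+, 12.1 in day 7 NKX2-5-, 0.130 in day 14 aMHC+ and 0.328 in day 14 aMHC-. Unlike PLVAP it was above 1 FPKM in all libraries up to day 7, and it was lowest on day 14, 19.6-fold below day 7 NKX2-5+ in aMHC+ and 7.76-fold below in aMHC- (log2 ratios -1.65 and -1.42). ACVRL1, the receptor that endoglin assists in endothelium, peaked in day 7 NKX2-5- at 1.32 FPKM and was at most 0.353 elsewhere. Its ligands GDF2 (BMP9) and BMP10 reached 1.85 FPKM in day 7 NKX2-5+ and 4.36 in day 14 aMHC+. TGFB2 was 17.9 FPKM or more in each day 7 and day 14 library and at most 0.162 before. SMAD6, an inhibitor that BMP signals switch on, was 1.19 FPKM in hESC and 10.6 to 41.1 in the other libraries.

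EGFL7 encodes a secreted factor of vessel formation and carries the microRNA gene MIR126 within its span. It was 3.43 FPKM in hESC, 1.20 in day 3 CD13+/ROR2+, 1.81 in day 3 CD13-/ROR2-, 1.73 in day 7 NKX2-5+, 5.67 in day 7 NKX2-5-, 3.85 in day 14 aMHC+ and 6.82 in day 14 aMHC-. It was above 1 FPKM in every library, with its highest value in day 14 aMHC-, 1.20-fold above day 7 NKX2-5-; after median-ratio scaling this order turned, with day 7 NKX2-5- 1.09-fold above. MIR126 is listed at 0 in all 7 libraries.

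ETV2 encodes the ETS factor that starts the blood and endothelial programme in mesoderm for a short time. It was 0.354 FPKM in hESC, 0.595 in day 3 CD13+/ROR2+, 0.183 in day 3 CD13-/ROR2-, 0.249 in day 7 NKX2-5-, 0.360 in day 14 aMHC+ and 0.622 in day 14 aMHC-, and is listed at 0 in day 7 NKX2-5+. No library reached 1 FPKM, and the highest values, day 14 aMHC- and day 3 CD13+/ROR2+, were 1.05-fold apart and changed places after median-ratio scaling. No time point between day 3 and day 7 was analysed here.

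Counted as deposited, 5 of the 7 calls over the 9 comparisons were in the day 7 pair and the step to day 7 NKX2-5-. These 2 comparisons share the day 7 NKX2-5- library and tested 6 genes each, whereas each of the others tested 1 to 3. More calls could thus fall in them from the outset. At equal sums of FPKM they held 0 and 3 calls. In day 7 NKX2-5+ over NKX2-5- all 10 genes were lower (8 of 10 at equal sums of FPKM, where KDR and EGFL7 turned), with a median log2 ratio of -1.51, or -1.39 after median-ratio scaling, beside -0.47 for all genes tested. FLT1 and PLVAP (8.26-fold) passed the size rule, 2 of the 6 genes tested, against 5.42% of all genes tested that were lower and 2.03% that were higher. Neither passed at equal sums of FPKM (FLT1 -1.08 and PLVAP -1.07) or with a pseudocount of 5. ENG (-1.88) and ESAM (-1.71) were the tested genes closest to the size of 2. In day 7 NKX2-5- over day 3 CD13+/ROR2+, 9 of 10 were higher with a median of 1.52 (beside -0.31 for all genes tested), and PLVAP (4.03), ESAM (2.74) and ENG (2.69) passed, 3 of the 6 tested against 5.35% higher and 3.69% lower. At equal sums of FPKM KDR and FLT1 turned and 7 were higher. PLVAP, ESAM and ENG reached 5 FPKM in day 7 NKX2-5- alone. In both comparisons they were thus tested only through that library and could be counted only as higher in it. The shares of tested genes beside all genes are a description here and not a test.

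Day 7 NKX2-5+ over the same day 3 library gave 0 of 1 tested gene past the rule (background 4.38% higher and 9.09% lower), with 7 of the 10 above and KDR, FLT1 and ETV2 below. The 2 day 7 comparisons share the day 3 library. In that step PLVAP (1.51) and ESAM (1.03) had the largest positive log2 ratios and FLT1 (-1.32) the largest negative one, and KDR (-0.44) turned under each of the 3 other scalings. In the day 3 pair 1 of 2 tested genes passed, FLT1, against 2.54% of genes lower and 3.69% higher. Against hESC, neither day 3 fraction had a gene past the rule (0 of 2 tested in each), beside 4.5% higher and 2.54% lower for CD13+/ROR2+ and 1.45% higher and 1.17% lower for CD13-/ROR2-; these 3 comparisons share libraries with each other.

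In day 14 aMHC+ over aMHC- none of the 2 tested genes passed (0.648% of all genes were higher and 0.35% lower), and the log2 ratios of EGFL7 (-0.69) and KDR (-0.63) were the largest as deposited, and that of FLT1 (0.44) under the 3 other scalings (0.61, 1.00 and 0.64). Over day 7 NKX2-5+, FLT1 was the 1 of 2 tested genes that passed in day 14 aMHC+ (7.68% higher and 0.829% lower among all genes), and in day 14 aMHC- it was 0 of 3 (11.8% and 1.34%), where FLT1 was 4.75-fold higher and EGFL7 3.93-fold. Under the 3 other scalings FLT1 did not pass in day 14 aMHC+, and the genes that passed were lower there: KDR under each, joined by ESAM, PLVAP and ENG at equal sums. Both day 14 comparisons share the day 7 library. PLVAP, ESAM, PECAM1, ENG and KDR were below day 7 NKX2-5+ in both day 14 libraries, also under the 3 other scalings.

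**Figure D3:**
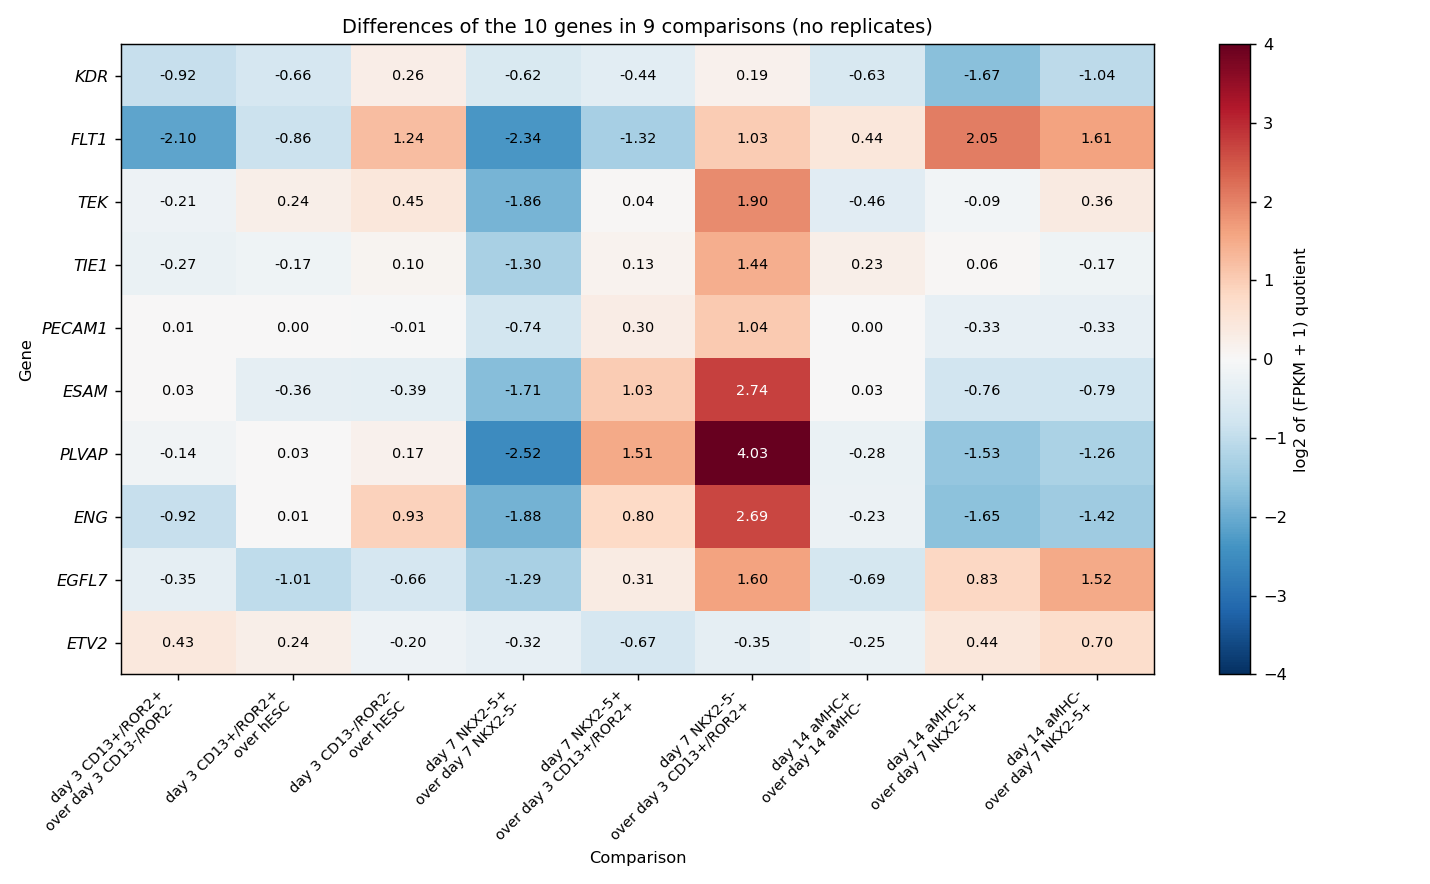
Log2 ratio of (FPKM + 1) for the 10 genes (rows) in the 9 comparisons (columns), with red for higher and blue for lower in the first-named library and the value in each cell. The column of the day 7 pair is negative for all 10 genes, from -0.32 for ETV2 to -2.52 for PLVAP, and 9 of 10 are positive in day 7 NKX2-5- over day 3 CD13+/ROR2+.

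The other endothelial genes had a similar peak. Of 30 further endothelial genes, 20 reached 1 FPKM in some library, 17 of these were highest in day 7 NKX2-5- and 10 by at least 4-fold. Among all 13506 genes of that level, 9.91% were highest there and 1.1% by at least 4-fold. CLDN5, EMCN, CLEC14A, ICAM2, MMRN2, CD34, CD93, THBD, GJA4, STAB1, CALCRL and ELTD1 reached 1 FPKM there alone. For these the floor fixed which library was highest, and the list was chosen with earlier results of these data known. CDH5, the endothelial cadherin, was 6.17 FPKM there, 1.01 in day 7 NKX2-5+ and at most 0.133 in the other 5 libraries. CD34, a surface protein of endothelium and blood progenitors, was 6.75 against 0.556 FPKM in the day 7 pair, and RAMP2, the adrenomedullin receptor subunit, 48.3 against 7.42. Those last 2 were the genes of the list that passed the size rule in the day 7 pair, out of 5 tested. Of all genes tested there, 5.42% were lower and 2.03% higher in NKX2-5+. CD34 reached 5 FPKM in day 7 NKX2-5- alone, so it could be counted only as lower in NKX2-5+. Levels nevertheless remained low: VWF reached 1.14 FPKM in day 3 CD13+/ROR2+ and 0.377 in day 7 NKX2-5-, and CLDN5 1.15 in day 7 NKX2-5-. S1PR1 went the other way, at 11.3 FPKM in day 7 NKX2-5+ against 5.84.

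Of 21 transcription factors of endothelium, 18 reached 1 FPKM in some library, and 7 of these were highest in day 7 NKX2-5-, beside 9.91% of all genes of that level. FLI1 was 2.62 FPKM there and at most 0.338 elsewhere, and ERG 2.17 there but 1.65 in hESC. FLI1 and LYL1 reached 1 FPKM in day 7 NKX2-5- alone, so for them the floor fixed which library was highest. In the day 7 pair 4 of the 7 tested were counted as lower in NKX2-5+ (ETS1, ELK3, FOXC1 and HEY1), with ETS1 at 0.814 against 15.2 FPKM. ELK3 (2.78 against 14.2 FPKM) and HEY1 (3.33 against 17.0) passed the size rule only narrowly. The counts of this list were not recomputed under the other scalings. Of all genes tested in that pair, 5.42% were lower and 2.03% higher. SOX17 and HHEX, which endoderm shares with endothelium, were highest in day 3 CD13+/ROR2+ at 17.8 and 7.43 FPKM.

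Markers of other cell types differed between the day 7 libraries as well. Of 7 hepatic and visceral endoderm genes, 6 were highest in day 7 NKX2-5-, all 6 by at least 4-fold over the next library. Among all 13506 genes of at least 1 FPKM, 9.91% were highest there and 1.1% by at least 4-fold. The NKX2-5- over NKX2-5+ folds of the 6 hepatic genes ran from 4.54 (APOA2) to 7.78 (SERPINA1). Those of the 9 endothelial genes of at least 1 FPKM ran from 1.63 (KDR) to 11.8 (TEK). The summed level of the 7 hepatic genes was 378 FPKM in day 7 NKX2-5-, 66.5 in NKX2-5+ and at most 4.87 on day 14, and FOXA2 was at 0.216 FPKM in day 7 NKX2-5-. The 10 fibroblast and mural genes summed to 1143 FPKM in NKX2-5- and 518 in NKX2-5+, with 6 of 9 tested counted as lower in NKX2-5+. PDGFRB was 24.3 against 0.747 FPKM. The 8 heart muscle genes summed to 603 FPKM in NKX2-5- and 3027 in NKX2-5+. The part of these cell types in the levels of PLVAP, ENG and the others was not tested. Housekeeping genes differed in the day 7 pair too: 10 of 11 were lower in NKX2-5+, with a median log2 ratio of -0.73. Of the 9 tested, 1 was counted as lower, ACTB at 393 against 2578 FPKM (6.55-fold), beside 5.42% of all genes tested. GAPDH went the other way, at 1470 FPKM in NKX2-5+ against 1144.

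Blood markers stayed low in the day 7 pair. Of 14 genes, 7 were listed at 0 in day 7 NKX2-5-, PTPRC, the pan-leukocyte gene, and GATA1 among them, and their summed level was 3.77 FPKM there and 4.18 in NKX2-5+, most of it EPOR. HBZ and HBG1 are listed at 0 in all 7 libraries and PTPRC in 6, and the embryonic globin gene HBE1 was 1.03 FPKM in day 7 NKX2-5-. The part of blood cells in the levels of PECAM1, TEK and CD34, which they share, was not tested. On day 14 the hepatic genes APOC3 and TTR were listed at 0, and CLEC14A and PECAM1 too.

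**Figure D4:**
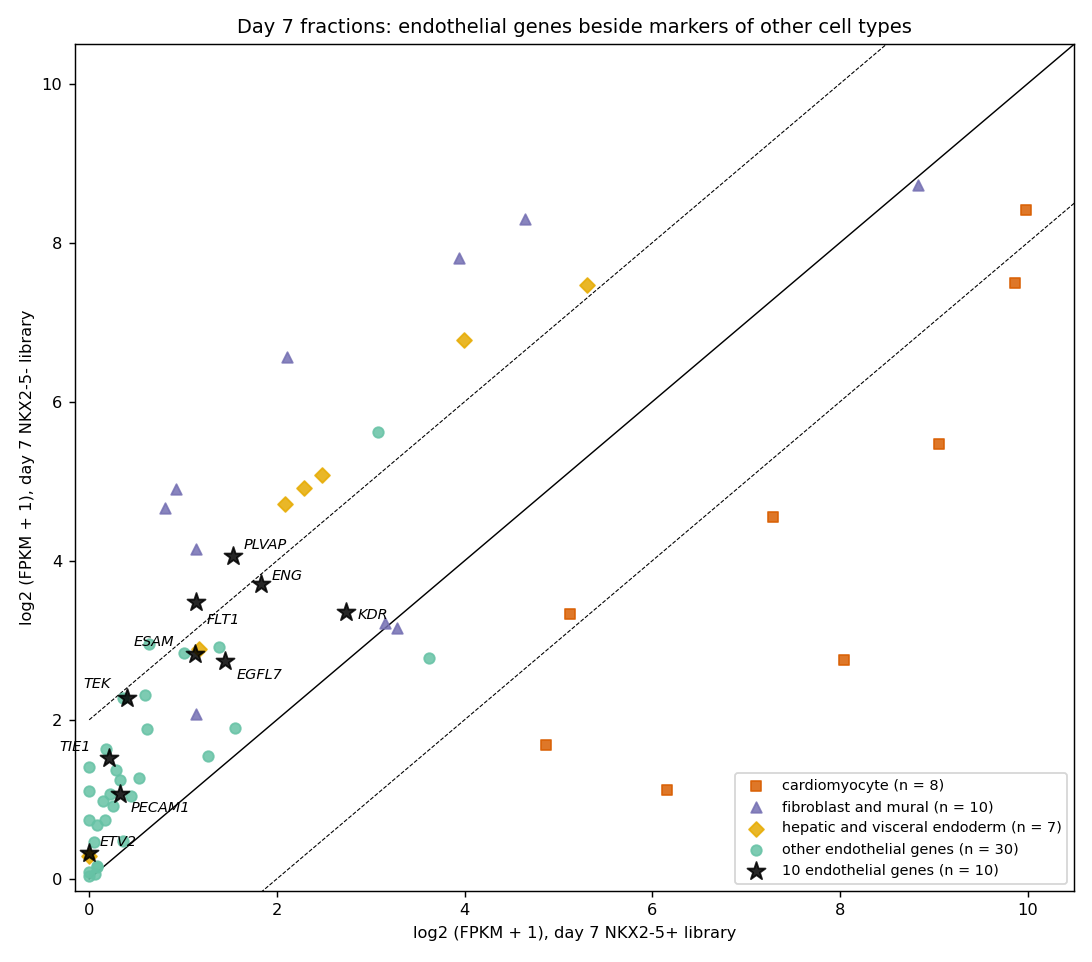
Log2 of (FPKM + 1) in day 7 NKX2-5+ (horizontal) and NKX2-5- (vertical); each point is 1 gene of 5 lists, stars are the 10 endothelial genes, the solid line marks equal levels and the dashed lines 4-fold. All stars lie above the solid line, as do the 7 hepatic genes, while the 8 heart muscle genes lie below it.

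The profiles fell apart into those of the 6 genes that peak in day 7 NKX2-5- and the rest. Across the 7 libraries, which include only 1 with a high value, the 15 pairs among the 6 had Pearson r between 0.806 and 0.994 on the log2 scale, which describes that shared peak. KDR and FLT1 had r = 0.357 with each other. Of 2608 genes of at least 5 FPKM and a range of at least 2 on the log2 scale, those most like KDR were CDK1 (r = 0.990), UBE2C (0.985) and MAD2L1 (0.983), all genes of cell division. CDK1 was 6.57 FPKM in day 3 CD13-/ROR2- and 0.872 in day 14 aMHC+, where KDR was also highest and lowest, and 37 genes had r above 0.95 with KDR. With a pseudocount of 5 the nearest were KPNA2, UBE2C and TOP2A.

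PLVAP was most like CDH5 (r = 0.998), followed by the plasma protein genes TTR (0.997) and FGA (0.995), with 27 genes above 0.95. ESAM was most like CDH5 (0.992), then FGB (0.988) and APOA4 (0.988). For ENG they were KCNE1L (0.960), ECSCR (0.952) and RNASE1 (0.932), for FLT1 GAP43 (0.957), CNNM2 (0.946) and ERRFI1 (0.945), and for EGFL7 ALDH1A1 (0.944), SULF1 (0.941) and MEST (0.937). Of these 18 genes, 10 were again among the nearest after median-ratio scaling and 9 with a pseudocount of 0.1. The number of genes above 0.95 was 24 for ESAM, 2 for ENG, 1 for FLT1 and 0 for EGFL7.

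**Figure D5:**
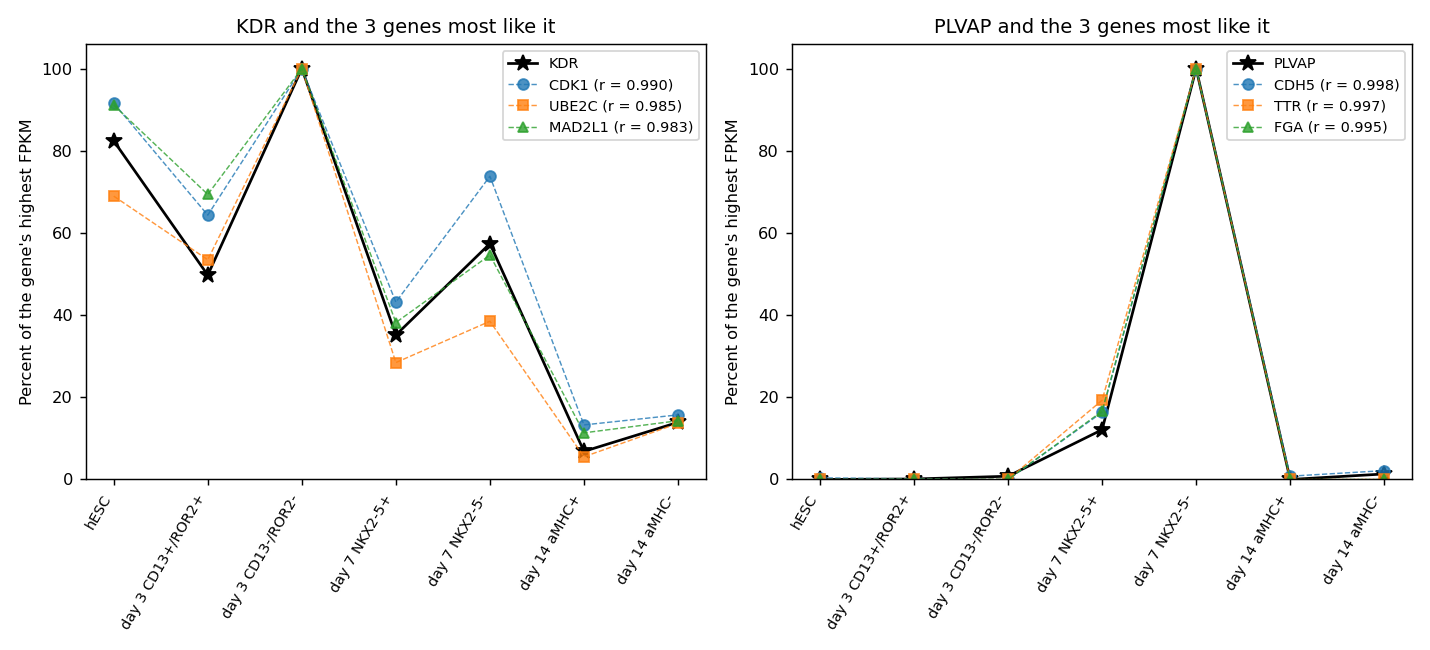
Level of KDR (left) and PLVAP (right) and of the 3 genes most like each, as percent of the highest FPKM of the gene (vertical axis), in the 7 libraries (horizontal axis); r is Pearson's over 7 libraries on the log2 scale. KDR and the cell division genes are high up to day 3 and lowest on day 14, and PLVAP, CDH5, TTR and FGA share 1 peak in day 7 NKX2-5-.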

How the data were processed

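RNA of 7 sorted or undifferentiated samples was sequenced, 1 library per group; per the labels' protocols, with a TruSeq RNA v2 kit, which marks no strand, as single reads. The authors deposited 1 table of FPKM values; per the submitters' processing notes, Cufflinks and hg19 were used, and no source used here names the aligner, versions or annotation. Of 23368 rows, 106 are blank and were left out. Reads of overlapping genes (ESAM and ESAM-AS1, EGFL7 and MIR126) cannot be told apart. FPKM keeps no absolute depth.

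Log2 ratios used a pseudocount of 1 FPKM in 9 comparisons, computed over all genes with Python 3.11.15 and pandas 2.3.3. The code was tried on a simulated pair of equal libraries without noise, with large changes put into well-expressed genes. That trial checks the code only and says nothing about noise, depth or low levels. The members and lists were chosen with earlier results of these data known. The named genes are all 10 members, called or largest members of the lists in each comparison, ligands, partners and defining markers, and the 3 genes of highest Pearson r for each member of at least 5 FPKM; not all of them are printed. Alternatives were pseudocounts of 0.1 and 5, no minimum, equal sums of 1000000, median-ratio scaling over 7780 genes, leaving out 1712 small RNA and histone symbols, and a 2-fold size rule. RefSeq promoters (GRCh38.p14) matched 8 of 10 genes; no coordinate was carried to hg19.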

Additional observations from a re-analysis of the deposited data

How the results depend on the processing

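Of 89 values of the counts recomputed under other settings, 61 stayed within 1.5 times and 28 moved. Many of the 61 are 0 in both settings, as in day 3 CD13+/ROR2+ over hESC and the day 14 pair, with 2 genes tested in each. The tally therefore says little about how stable the counts above 0 are. With a pseudocount of 5 the genes called were 0 in the day 3 pair (FLT1 lost), 0 in the day 7 pair, 1 in day 7 NKX2-5- over day 3 CD13+/ROR2+ and 0 in day 14 aMHC+ over day 7 NKX2-5+. With 0.1 they were 4 in the day 7 pair (ESAM and ENG added), 2 in day 14 aMHC+ and 1 in day 14 aMHC- over day 7 NKX2-5+. Equal sums gave 0 in the day 7 pair, 2 in day 7 NKX2-5+ over day 3 CD13+/ROR2+, and 4 in each day 14 library over day 7 NKX2-5+, all lower. Leaving out small RNA and histone genes gave 0 in the day 3 pair and 1 in day 14 aMHC- over day 7 NKX2-5+ (KDR). A 2-fold rule gave 1 in day 3 CD13-/ROR2- over hESC, 5 in the day 7 pair, 5 in day 7 NKX2-5- over day 3, and 2 and 3 in day 14 aMHC+ and aMHC- over day 7 NKX2-5+. ETV2 moved to day 3 CD13+/ROR2+, so that 1 gene was highest there under each of the 3 scalings, leaving 1 gene highest in day 14 aMHC- at equal sums and 0 under the other 2. The 6 genes at least 4-fold above the next library (settings chosen after seeing the data) became 0 at equal sums, 3 after median-ratio scaling, 3 without small RNA and histone genes, and 1 (PLVAP) with 1 FPKM added. Of the 18 genes of like profile, 3 were again nearest with a pseudocount of 5. No paired analysis was possible because each group is 1 library. In day 14 aMHC+ over day 7 NKX2-5+ the count stayed at 1 with small RNA and histone genes left out or median-ratio factors applied, but the gene was KDR (lower) and not FLT1. Depth limits values under 1 FPKM, and day 7 NKX2-5+ had the lowest depth of those that could be read.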

Other observations

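LMO2 and GATA2, regulators shared by blood and endothelium, were highest on day 14, while TAL1, LYL1 and FLI1, which are shared too, were highest in day 7 NKX2-5- (0.645, 1.27 and 2.62 FPKM). LMO2, a cofactor of blood and endothelial transcription, was 64.7 FPKM in day 14 aMHC- and 26.4 in day 14 aMHC+, against 4.89 in day 7 NKX2-5- and 2.75 in day 7 NKX2-5+. GATA2 was 6.49 and 3.28 FPKM in day 14 aMHC- and aMHC+ and 0.443 in day 7 NKX2-5-. In the same day 14 libraries TAL1 was at most 0.0124 FPKM and PECAM1 was listed at 0. PROX1, a factor of lymphatic endothelium and of heart muscle, was 11.3 FPKM in day 7 NKX2-5+ against 2.32 in NKX2-5-, while the lymphatic gene LYVE1 was at most 0.0366 FPKM in every library.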
